A study of Homo sapiens with 6 samples.

Results

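The genes described here encode the amino acid transporters of 5 solute carrier families, SLC1, SLC7, SLC36, SLC38 and SLC43, together with the heavy chain genes SLC3A1 and SLC3A2. The families were chosen with earlier results of these data known. Members were taken by gene symbol alone, as every gene named SLC1A, SLC7A, SLC36A, SLC38A or SLC43A with a number, plus the heavy chains. This gave 40 of the 62700 genes in the deposited counts, and all 40 were protein coding. RNA sequencing compared 3 libraries labelled NNMT knockdown with 3 control libraries. The labels name the cells as MKN-45, a long-established line derived from a human gastric adenocarcinoma. NNMT encodes nicotinamide N-methyltransferase. Harvest was 48 h after transfection, and the replicates are described as independent. The labels disagree on the transfected RNA, naming small interfering RNA in one place and shRNA in others. The controls are called untouched in the design text, while other labels name a negative-control RNA, and no other allele or agent is given for either group.

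Amino acids cross membranes through carriers, and many of these carriers exchange one amino acid for another or use the sodium or proton gradient. Some light chains of the SLC7 family reach the cell surface only as heterodimers with a heavy chain of the SLC3 family, to which a disulfide bond joins them. Transcription of several transporter genes is known to be raised by the factor ATF4 when amino acids are scarce, and lysosomal carriers take part in amino acid sensing by the kinase complex mTORC1. In tumour cells the glutamine, leucine and cystine carriers of these families are known for supplying growth, nucleotide synthesis and glutathione.

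Library totals ranged from 40558680 to 45405621 reads in libraries labelled knockdown and from 41591436 to 56067484 in control libraries. The 40 transporter genes took 0.183%, 0.198% and 0.214% of the reads in replicates 1, 2 and 3 labelled knockdown, against 0.211%, 0.256% and 0.231% in control replicates 1, 2 and 3. NNMT itself held 2, 8 and 14 reads in replicates 1, 2 and 3 labelled knockdown, against 0, 8 and 12 reads in the control replicates. Its log2 fold change was 0.48 (SE 0.929; 95% interval of the fold 0.336 to 5.78), and the adjusted p was 0.999 (edgeR). With so few reads in every library, a knockdown could not be checked at this depth, and the groups are named by their labels. Of 14 gastric epithelial markers, 7 lay under 1 CPM (reads scaled to a common library total) in all 6 libraries, and CDX1, CDX2, GATA4 and GKN1 had 0 reads. The other 7, which were GATA6, TFF1, TFF2, TFF3, MUC5AC, MUC6 and CEACAM5, exceeded 1 CPM in at least 1 library, and MUC6 reached 34 to 64.9 CPM in libraries labelled knockdown and 25.7 to 84.1 CPM in control libraries. HNF4A, VIL1 and CDH17 were the rest of those under 1 CPM. Part of the list was thus absent and part present, and the identity of the line could not be checked from these counts. The summed level of this list was 55.7 to 127 CPM in libraries labelled knockdown and 46.1 to 150 CPM in control libraries. Sums for epithelial markers were 1260 to 1590 CPM in libraries labelled knockdown and 1300 to 1320 CPM in control libraries. For mesenchymal markers they were 1190 to 1330 CPM in libraries labelled knockdown and 1140 to 1230 CPM in control libraries. Over all 6 libraries VIM had 701 to 990 CPM, COL1A1 241 to 510 CPM and COL3A1 70.2 to 103 CPM. COL1A2 had 5.76 to 19.4 CPM, and DCN, LUM and PDGFRB reached at most 2.35, 0.499 and 0.815 CPM. Of the epithelial markers, KRT19 had 898 to 1260 CPM, KRT8 168 to 194 CPM and KRT18 111 to 128 CPM. CDH1 had 28.6 to 46.1 CPM and EPCAM 17.2 to 40 CPM. Endothelial sums were 18 to 26.8 CPM in libraries labelled knockdown and 21.2 to 26.8 CPM in control libraries, mostly from PECAM1. Blood and immune sums were 0.814 to 2.47 CPM in libraries labelled knockdown and 2.24 to 2.67 CPM in control libraries. The part of these markers in any transporter difference was not tested.

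A few transporters supplied most of the transporter RNA. Levels between genes are given in TPM, reads per base of merged exon scaled to the same sum in each library. Of the 40 genes, 21 had a mean of at least 1 TPM, 14 reached 10 TPM and 6 reached 50 TPM. The 6 were SLC38A2, SLC38A1, SLC3A2, SLC7A5, SLC38A10 and SLC1A5. SLC38A2, a sodium-coupled importer of small neutral amino acids, supplied 52.4%, 48.2% and 52.8% of the summed transporter TPM in replicates 1, 2 and 3 labelled knockdown, against 54.9%, 57.3% and 53.5% in the control replicates. Its mean over all libraries was 709 TPM, and the next gene, SLC38A1, had 124 TPM. SLC3A2 followed at 91.1 TPM and SLC7A5 at 86.4 TPM, and the ranges of these 2 genes over the libraries overlapped. SLC38A10 at 59.5 TPM and SLC1A5 at 57.9 TPM overlapped as well. SLC38A1 lay above SLC3A2 in each library.

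**Figure D1:**
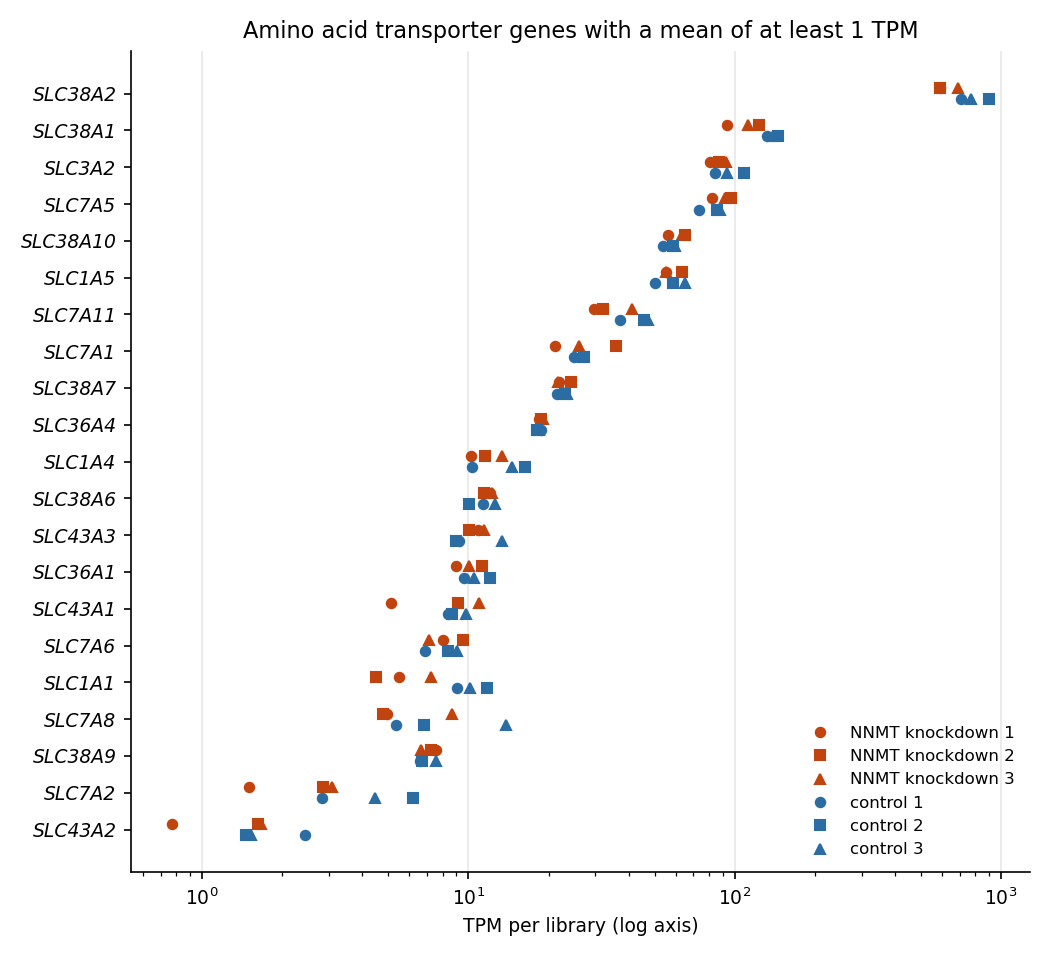
TPM (log axis) of the 21 amino acid transporter genes with a mean of at least 1 TPM, in order of their mean, with 1 point per library; orange marks libraries labelled NNMT knockdown and blue marks control libraries, and shapes mark replicates 1, 2 and 3. SLC38A2 lies above all other genes in every library, and for SLC38A2, SLC38A1 and SLC1A1 all orange points lie left of all blue points.

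No transporter gene passed the test of knockdown against control after adjustment over all genes tested, and the lowest unadjusted p-values in the filtered fit belonged to genes with lower levels in libraries labelled knockdown, the glutamate carrier SLC1A1 and the neutral amino acid carriers SLC38A1 and SLC38A2. SLC1A1 was at 0.565 of its control level, and SLC38A1 and SLC38A2 were at 0.798 and 0.795 of theirs. By size the lowest fold was that of the cationic carrier SLC7A2, at 0.556 of its control level, with overlap between the groups. Of the 40 genes, 26 had enough reads to be tested and 14 did not. Of the 26, 0 passed the 0.05 threshold on the adjusted p of edgeR (0.999 at the lowest), as did 0.0% of all 20250 genes tested. At an unadjusted p under 0.05, 5 transporters were lower and 0 were higher in this fit, while SLC1A3 was higher at such a p in limma-voom and without a filter. The 5 make 19.2% of the transporters tested, against 2.05% of all genes tested that were lower and 1.98% that were higher at that p. As the families were chosen with earlier results of these data known, these shares are a description only, and no set test was run. Leaving out replicate 1 labelled knockdown, replicate 2 labelled knockdown or control replicate 2 brought the count of 5 to 2 in each case. The share of all genes in those fits is not given, so nothing is read from this change. The median log2 fold change of the 26 was -0.0329, against 0.0033 over all genes tested, and 13 lay above 0 and 13 below.

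In 3 of the 26 every library labelled knockdown lay below every control library, which is 11.5%, against 4.88% of all genes tested. In 1, or 3.85%, every library labelled knockdown lay above, against 4.29% of all genes tested. Both directions together made 4 transporters, or 15.4%, against 9.17% of all genes tested. With 1 library fewer the counts were higher for all genes too: without control replicate 1 there were 9 transporters, or 34.6%, against 22.7% of all genes, and without control replicate 3 there were 7, or 26.9%, against 20.0%. For 17 of the 26 the 95% interval of the fold lay within a 2-fold change in either direction. The spread between replicates was like that of other genes, with a median SD of log2 CPM within groups of 0.217 over the transporters and 0.208 over all genes tested. Of the 26 genes, 9 had their lowest level in control replicate 1 and 8 in replicate 1 labelled knockdown. In control replicate 2, 8 had their highest. The shares of all genes for these counts are not given.

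**Figure D2:**
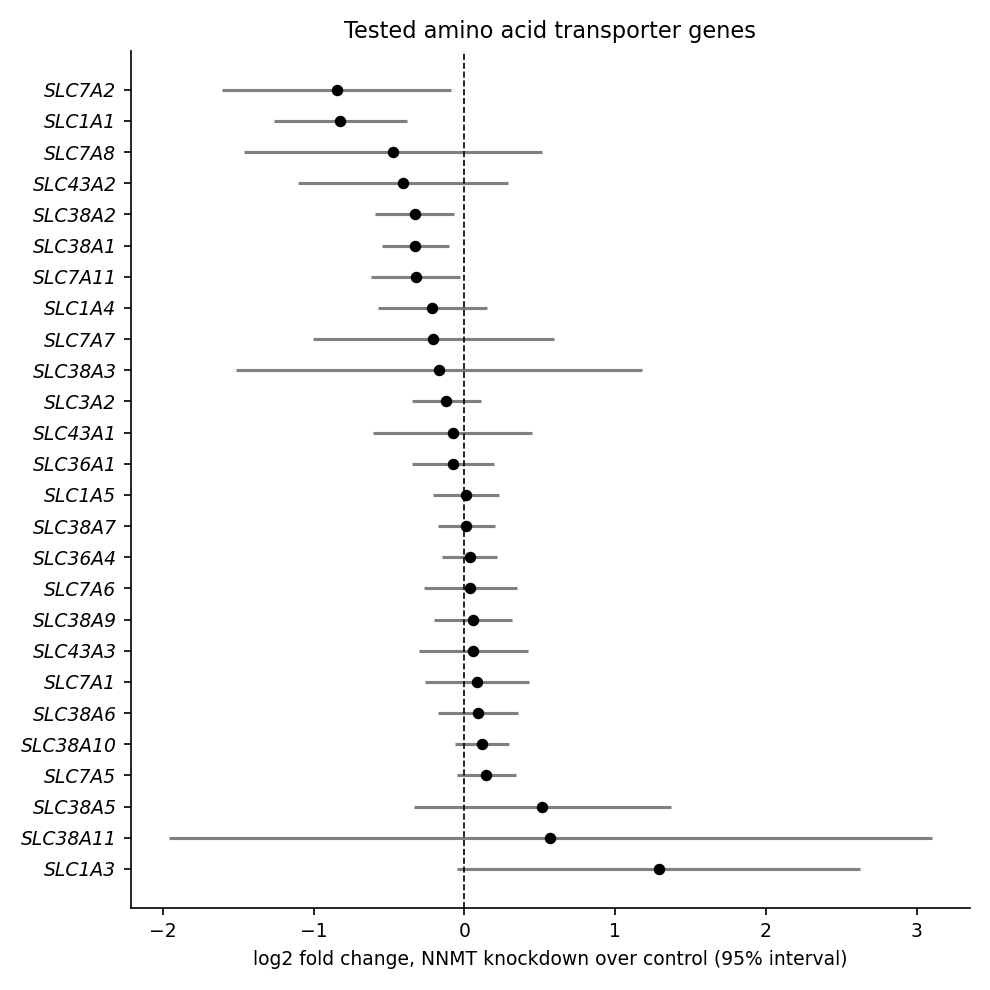
Log2 fold change, NNMT knockdown over control, of the 26 tested amino acid transporter genes in edgeR's quasi-likelihood fit, with 95% intervals, in order from the lowest; the dashed line marks no difference. Intervals lie wholly below 0 for SLC7A2, SLC1A1, SLC38A2, SLC38A1 and SLC7A11 and reach 0 for all others.

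The calls depended on the filter on low counts. With every gene that had a read kept in the fit, edgeR called 2 of 38 transporters, SLC1A1 (adjusted p = 0.00996) and SLC7A2 (adjusted p = 0.0137), against 0.19% of 37861 genes. The standard error of the log2 fold change was 0.186 for SLC1A1 in that fit and 0.2 with the filter, and for SLC7A2 it was 0.197 and 0.332. DESeq2 called 0 of 38 transporters (lowest adjusted p 0.188, for SLC1A1; 5 at an unadjusted p under 0.05), against 0.0158% of 37856 genes. Limma-voom called 0 of 26, with 6 at an unadjusted p under 0.05 and a lowest adjusted p of 0.993. For the unadjusted counts of DESeq2 and limma-voom the shares of all genes are not given, and nothing is read from them.

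The high-affinity glutamate carriers of the SLC1 family import glutamate and aspartate with sodium. They are best known for clearing glutamate at synapses. SLC1A1 was the main member in these cells, as it is in many epithelia. Its gene spans chromosome 9 from 4490468 to 4587469 (hg38, plus strand). SLC1A1 had 5.25, 4.27 and 6.97 CPM in replicates 1, 2 and 3 labelled knockdown, against 8.63, 11.2 and 9.49 CPM in the control replicates. The groups did not overlap, and the lowest control library lay above the highest labelled knockdown. Its log2 fold change was -0.82 (SE 0.2; 95% interval of the fold 0.416 to 0.768), and the unadjusted p was 0.00181 (adjusted p = 0.999, edgeR). Summed over the 5 glutamate carriers, the level was 5.61, 4.76 and 7.41 TPM in replicates 1, 2 and 3 labelled knockdown, against 9.1, 11.8 and 10.3 TPM in the control replicates. SLC1A1 supplied most of that sum, with a mean of 5.74 TPM in libraries labelled knockdown and 10.3 TPM in control libraries. As these are bulk samples, fewer cells of a type and less RNA per cell cannot be told apart.

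The glial glutamate carrier SLC1A3 was the 1 tested transporter whose libraries labelled knockdown all lay above the controls, at very low levels. It held 18, 30 and 31 reads in replicates 1, 2 and 3 labelled knockdown, against 2, 12 and 24 reads in control replicates 1, 2 and 3. These are 0.444, 0.661 and 0.713 CPM, against 0.0481, 0.249 and 0.428 CPM. The control libraries differed among themselves by more than the libraries labelled knockdown did. On the log2 scale the fold change was 1.29 (SE 0.605; 95% interval of the fold 0.967 to 6.17), and the unadjusted p was 0.0575 (edgeR). Unadjusted p was 0.0302 in limma-voom and 0.0196 in edgeR without a filter. With halved counts SLC1A3 did not pass the filter on low counts and was not tested. The estimate depended on single control libraries, at 0.84 without control replicate 1 and 1.97 without control replicate 3. The neuronal or glial carriers SLC1A2, SLC1A6 and SLC1A7 had at most 6 reads in any library and were not tested.

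SLC1A5 and SLC1A4 exchange neutral amino acids across the surface, and SLC1A5 is known as a main glutamine importer of cancer cells. For SLC1A5, levels were 44.3, 50.2 and 44.5 CPM in replicates 1, 2 and 3 labelled knockdown, against 40.3, 46.8 and 51.2 CPM in the control replicates. The groups overlapped throughout. The fold was 1.01 (95% interval 0.866 to 1.17). For SLC1A4, which carries alanine, serine and cysteine, the mean was 19.6 ± 2.7 CPM in libraries labelled knockdown and 22.7 ± 5.05 CPM in control libraries (SD, n = 3 each), with overlap.

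The system A carriers SLC38A1, SLC38A2 and SLC38A4 bring in glutamine, alanine and other small neutral amino acids with sodium. Their genes lie side by side on the minus strand of chromosome 12. In hg38, SLC38A1 spans 46183063 to 46270017 and SLC38A2 spans 46358188 to 46372773, with a gap of 88171 bases between them. SLC38A2, whose RNA is known to respond to amino acid supply, had 930, 916 and 1091 CPM in replicates 1, 2 and 3 labelled knockdown, against 1107, 1405 and 1189 CPM in the control replicates. All control libraries lay above all libraries labelled knockdown, though control replicate 1 was close to replicate 3 labelled knockdown. The log2 fold change was -0.33 (SE 0.119; 95% interval of the fold 0.663 to 0.955), and the unadjusted p was 0.0187 (adjusted p = 0.999, edgeR).

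SLC38A1, a glutamine carrier of many growing cells, had 226, 294 and 273 CPM in replicates 1, 2 and 3 labelled knockdown, against 318, 349 and 328 CPM in the control replicates. Its groups did not overlap either. On the log2 scale the fold change was -0.33 (SE 0.1; 95% interval of the fold 0.684 to 0.93), and the unadjusted p was 0.00796 (adjusted p = 0.999, edgeR). SLC38A4, known from liver and placenta, lies 391988 bases from SLC38A2 and had 1 to 8 reads per library, too few to be tested. Summed over system A, the level was 686, 713 and 803 TPM in replicates 1, 2 and 3 labelled knockdown, against 841, 1045 and 913 TPM in the control replicates. The total over all transporters was 1129, 1224 and 1310 TPM in replicates labelled knockdown and 1290, 1571 and 1446 TPM in control replicates, with overlap of 1 library on each side. Without SLC38A2 it was 537, 634 and 619 TPM in replicates labelled knockdown and 581, 671 and 672 TPM in control replicates, and the groups overlapped.

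The windows before the start sites are shown for SLC1A1 and SLC38A2, whose groups did not overlap, and for SLC7A5, whose ratio to its partner is described further on. Each of these genes has 1 start site in the RefSeq promoter table (GRCh38.p14), and each window holds the 250 bases before it. The sequences run 5′ to 3′ on the gene's strand, and capitals mark matches to the motifs searched.
SLC1A1 chr9:4490218-4490467 (plus strand): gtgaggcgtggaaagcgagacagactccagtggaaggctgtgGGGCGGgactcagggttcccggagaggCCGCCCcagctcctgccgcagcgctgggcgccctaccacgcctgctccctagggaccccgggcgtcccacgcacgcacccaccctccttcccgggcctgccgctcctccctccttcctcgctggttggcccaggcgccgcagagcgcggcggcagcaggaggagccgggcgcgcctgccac
SLC38A2 chr12:46372774-46373023 (minus strand): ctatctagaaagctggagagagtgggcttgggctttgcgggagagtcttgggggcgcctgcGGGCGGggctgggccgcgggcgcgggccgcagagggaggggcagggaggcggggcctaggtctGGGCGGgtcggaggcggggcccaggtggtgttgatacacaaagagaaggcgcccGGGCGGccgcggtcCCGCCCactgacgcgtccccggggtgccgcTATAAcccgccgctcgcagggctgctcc
SLC7A5 chr16:87869508-87869757 (minus strand): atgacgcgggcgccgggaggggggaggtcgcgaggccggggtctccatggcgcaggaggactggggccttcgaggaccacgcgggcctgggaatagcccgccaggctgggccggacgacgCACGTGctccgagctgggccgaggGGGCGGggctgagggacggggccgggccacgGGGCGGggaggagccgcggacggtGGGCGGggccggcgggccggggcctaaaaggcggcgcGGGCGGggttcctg

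The motifs were searched on both strands of windows from 250 bases before to 50 bases after each start. They were the amino acid response motif TGATGNAA bound by ATF4, the cAMP response motif TGACGTCA, the antioxidant response motif TGACNNNGC, the E-box CACGTG, the GC box GGGCGG and the TATA core TATAA. None of these 6 motifs overlapped another in the windows shown. The 250 bases shown for SLC38A2 hold 4 GC boxes and a TATA core at -28 to -24, where -1 is the base before the start, and those of SLC1A1 hold 2 GC boxes. Those of SLC7A5 hold 4 GC boxes and an E-box at -130 to -125. The bases after the start, which are not shown, hold 1 more GC box for SLC1A1 and 2 more for SLC7A5, and an antioxidant motif spans the start of SLC7A5 from -2 to 7. All 3 are rich in G and C, at 72% for SLC38A2, 74.7% for SLC1A1 and 80.3% for SLC7A5 over the whole window of 250 bases before and 50 after, against a median of 58.7% over all 35116 windows.

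None of the 3 windows shown holds the amino acid response motif. SLC38A1 and SLC1A3, whose groups did not overlap either, have several start sites and are not shown. A window of each holds the motif. For SLC38A2 the known element lies in the first intron, outside the window. Windows were at hand for 31 of the 40 transporters, 53 windows in all, since some genes have several starts. The amino acid response motif was in 11.3% of them, against 3.62% of all windows, in SLC1A3, SLC1A4, SLC1A5, SLC38A1, SLC3A2 and SLC7A1. An E-box was in 17.0%, against 7.26% of all windows, and the antioxidant motif in 13.2%, against 13.3%. The GC box was in 58.5%, against 45.0%, the TATA core in 11.3%, against 20.4%, and the cAMP response motif in 0 of the 53, against 1.85%. These matches describe letters only, since binding was not measured.

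**Figure D3:**
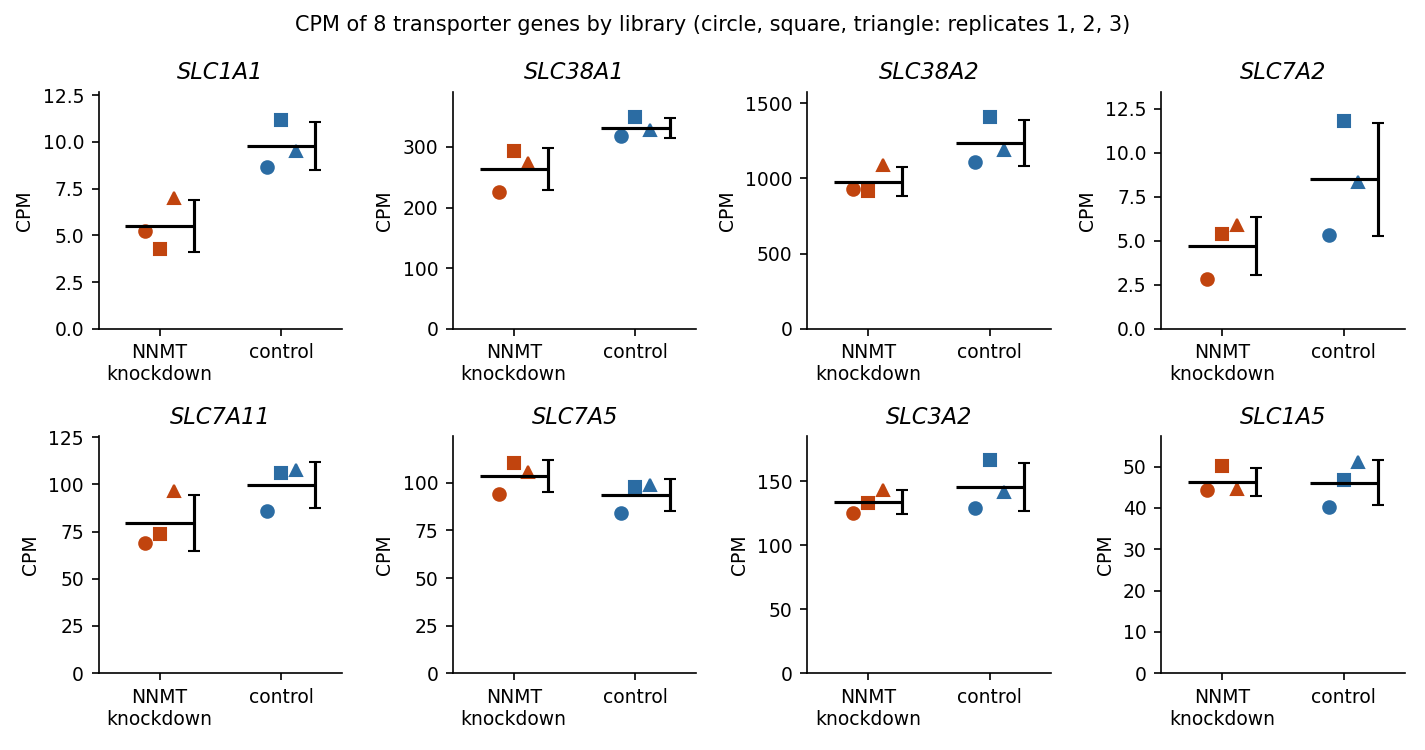
CPM (linear axis from 0) of 8 amino acid transporter genes, with 1 point per library and the mean with its SD as lines (n = 3 each), libraries labelled NNMT knockdown left and control right. SLC1A1, SLC38A1 and SLC38A2 show no overlap between groups, while SLC7A2, SLC7A11, SLC7A5, SLC3A2 and SLC1A5 overlap.

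SLC3A2 is the heavy chain shared by several light chains, which it brings to the cell surface. Its gene spans chromosome 11 from 62856004 to 62888880 (hg38, plus strand). SLC3A2 had 125, 133 and 143 CPM in replicates 1, 2 and 3 labelled knockdown, against 129, 166 and 142 CPM in the control replicates, so the groups overlapped. The fold was 0.92 (95% interval 0.787 to 1.08). SLC3A1, the heavy chain of cystine uptake in kidney and intestine, had 5, 5 and 5 reads in replicates labelled knockdown and 2, 15 and 12 reads in control replicates and was not tested. Of its merged exons, 54.6% were shared with other genes, among them PREPL.

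Among the light chains, SLC7A5 and SLC7A11 were the most abundant. SLC7A5, the leucine and tryptophan exchanger, spans 87830023 to 87869507 on the minus strand of chromosome 16. It had 94.2, 110 and 106 CPM in replicates 1, 2 and 3 labelled knockdown, against 84.3, 98 and 99.1 CPM in the control replicates. Replicate 1 was the lowest of each group, and the groups overlapped. The log2 fold change was 0.14 (SE 0.0882; 95% interval of the fold 0.966 to 1.26), and the unadjusted p was 0.13 (edgeR). SLC7A5 had the second lowest p of the genes above control, after SLC1A3.

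SLC7A11 exchanges cystine for glutamate and feeds glutathione synthesis. Its gene spans chromosome 4 from 138164097 to 138242349 (hg38, minus strand). SLC7A11 had 68.7, 73.5 and 96.3 CPM in replicates 1, 2 and 3 labelled knockdown, against 85.7, 106 and 107 CPM in the control replicates. Replicate 3 labelled knockdown lay above control replicate 1, so the groups overlapped. On the log2 scale the fold change was -0.32 (SE 0.132; 95% interval of the fold 0.652 to 0.982), and the unadjusted p was 0.0355 (adjusted p = 0.999, edgeR). Without replicate 3 labelled knockdown the log2 fold change was -0.48. An antisense gene, SLC7A11-AS1, shares 8.97% of its exons, and reads on shared stretches were not counted.

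The other light chains were lower. SLC7A6, an exchanger of cationic and neutral amino acids, averaged 15 ± 2.08 CPM in libraries labelled knockdown and 14.7 ± 1.93 CPM in control libraries (SD, n = 3 each), and 55.6% of its exons were shared with other genes. SLC7A8, an exchanger of neutral amino acids, had 7.15, 6.81 and 12.6 CPM in replicates 1, 2 and 3 labelled knockdown, against 7.67, 9.79 and 19.6 CPM in the control replicates. Replicate 3 was the highest in each group, and the 95% interval of the fold ran from 0.363 to 1.43. For SLC7A8 the unadjusted p was 0.289 in edgeR and 0.0276 in edgeR with the replicate number as a block (adjusted p = 0.996). SLC7A7, known from lysine and arginine export in intestine and kidney, averaged 0.845 ± 0.165 CPM in libraries labelled knockdown and 0.974 ± 0.356 CPM in control libraries (SD, n = 3 each). SLC7A9, the partner of SLC3A1, had 1 to 26 reads per library, SLC7A13 had 0 to 12, and SLC7A10 had 6 reads in control replicate 1 and 0 in the others.

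The balance of light to heavy chain RNA was taken as the ratio of reads per base within each library. The bases are those of the merged exons, 6392 for SLC3A2 and 4764 for SLC7A5. How near a ratio lies to 1 depends on these lengths, while the comparison between groups does not. Reads on exons shared with other genes, 55.6% of the SLC7A6 exons, were not counted. For SLC7A5 to SLC3A2 it was 1.01, 1.12 and 0.992 in replicates 1, 2 and 3 labelled knockdown, against 0.878, 0.791 and 0.939 in the control replicates. The ratio was 1.2-fold higher in libraries labelled knockdown with no overlap between the groups (exact two-sided permutation test, p = 0.1, the smallest that 3 against 3 libraries allow; adjusted p = 0.2 over 4 ratios). For SLC7A11 to SLC3A2 it was 0.364, 0.367 and 0.445 in replicates labelled knockdown, against 0.441, 0.422 and 0.503 in control replicates, with overlap (exact permutation p = 0.3, adjusted p = 0.4). For SLC7A6 to SLC3A2 the mean was 0.0952 ± 0.0166 in libraries labelled knockdown and 0.0851 ± 0.0097 in control libraries (SD, n = 3 each; exact permutation p = 0.5, adjusted p = 0.5).

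The leucine exchanger gene SLC7A5 and the cystine exchanger gene SLC7A11, which draw on the same heavy chain, stood 2.77, 3.04 and 2.23 to 1 in replicates 1, 2 and 3 labelled knockdown, against 1.99, 1.87 and 1.87 to 1 in the control replicates. The lowest ratio labelled knockdown lay above the highest control ratio, a 1.39-fold difference (exact two-sided permutation p = 0.1, adjusted p = 0.2). With 3 libraries per group no ratio could pass a threshold of 0.05.

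**Figure D4:**
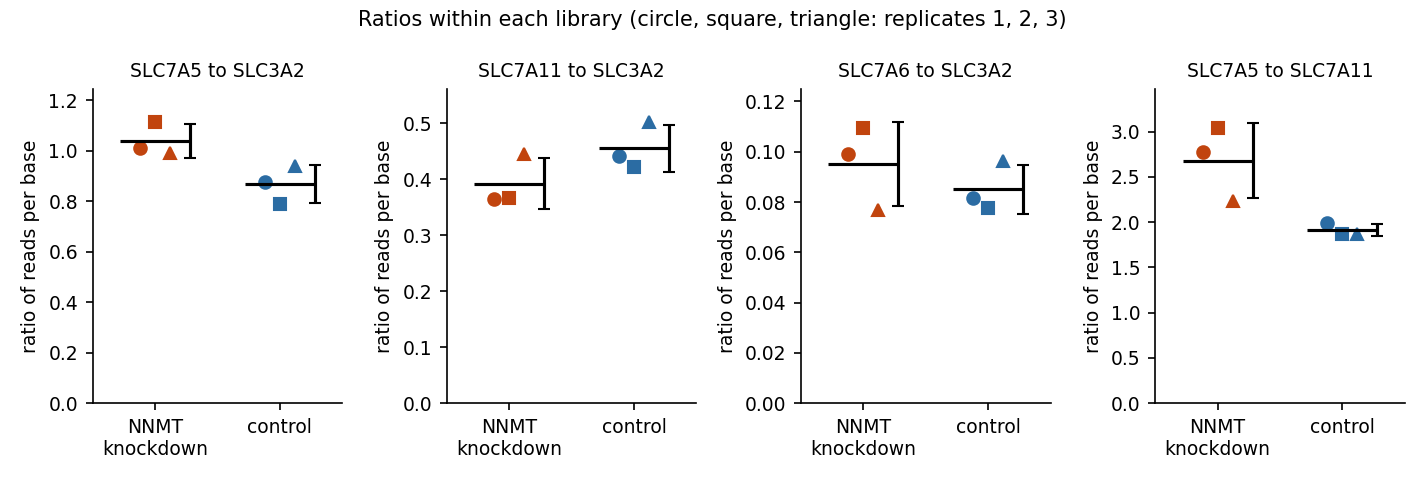
Ratios of reads per base between transporter genes within each library (linear axes from 0), libraries labelled NNMT knockdown left and control right, with the mean and SD as lines (n = 3 each). The ratios SLC7A5 to SLC3A2 and SLC7A5 to SLC7A11 do not overlap between the groups, and the other ratios do.

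The cationic carriers bring in arginine, lysine and ornithine and need no heavy chain. SLC7A1, the widely expressed member, had 39.2, 65.7 and 48.7 CPM in replicates 1, 2 and 3 labelled knockdown, against 45.8, 50.2 and 49.1 CPM in the control replicates. The libraries labelled knockdown held both the lowest and the highest value, and the fold was 1.06 (95% interval 0.833 to 1.34). SLC7A2, an inducible member known from liver and macrophages, had 2.86, 5.37 and 5.89 CPM in replicates 1, 2 and 3 labelled knockdown, against 5.34, 11.8 and 8.33 CPM in the control replicates. Control replicate 1 lay among the libraries labelled knockdown. The log2 fold change was -0.85 (SE 0.332; 95% interval of the fold 0.328 to 0.941), and the unadjusted p was 0.0329 (adjusted p = 0.999, edgeR). Without control replicate 2 the log2 fold change was -0.54. SLC7A4, a relative, had 1 read in all, and SLC7A3 and SLC7A14 had 0 reads in every library, and 3 reads would be 0.0535 to 0.074 CPM depending on the library. A limit set at these values covers counting error only and is too low, because mates were largely counted singly.

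The system N carriers, which move glutamine, histidine and asparagine, were scarce. SLC38A5 averaged 0.912 ± 0.297 CPM in libraries labelled knockdown and 0.64 ± 0.127 CPM in control libraries (SD, n = 3 each). Its 95% interval of the fold ran from 0.793 to 2.58 (unadjusted p = 0.208 in edgeR's quasi-likelihood test). SLC38A3 averaged 0.224 ± 0.116 CPM in libraries labelled knockdown and 0.255 ± 0.0793 CPM in control libraries (SD, n = 3 each).

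Carriers of the lysosome and the proton-coupled carriers overlapped between the groups and had narrow intervals. SLC38A7, which exports glutamine from lysosomes, averaged 36.3 ± 1.88 CPM in libraries labelled knockdown and 36 ± 1.42 CPM in control libraries (SD, n = 3 each), a fold of 1.01 (95% interval 0.886 to 1.15). SLC38A9, the lysosomal arginine sensor of mTORC1, averaged 15.1 ± 0.939 CPM in libraries labelled knockdown and 14.6 ± 1 CPM in control libraries (SD, n = 3 each), and the fold interval at 95% was 0.869 to 1.24. SLC36A4, a carrier of proline and tryptophan, averaged 43.7 ± 0.952 CPM in libraries labelled knockdown and 42.7 ± 0.932 CPM in control libraries (SD, n = 3 each). Its 95% interval of the fold ran from 0.903 to 1.16. SLC36A1, which carries small amino acids out of lysosomes with protons, averaged 16.9 ± 1.74 CPM in libraries labelled knockdown and 17.9 ± 2.12 CPM in control libraries (SD, n = 3 each). SLC36A2 and SLC36A3, its neighbours on chromosome 5, had 0 to 6 and 2 to 28 reads per library and were not tested.

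Of the other SLC38 genes, SLC38A10 was abundant. It had 107, 123 and 121 CPM in replicates 1, 2 and 3 labelled knockdown, against 102, 111 and 112 CPM in the control replicates, with overlap. On the log2 scale the fold change was 0.12 (SE 0.0812; 95% interval of the fold 0.957 to 1.23), and the unadjusted p was 0.181 (edgeR). SLC38A6 had 16.1, 15 and 16.4 CPM in replicates labelled knockdown, against 15, 13.3 and 16.4 CPM in control replicates, with a log2 fold change of 0.09 (SE 0.121). SLC38A11 had the widest interval of the tested transporters, with 0.567, 2.51 and 0.345 CPM in replicates labelled knockdown, against 1.52, 0.104 and 0.696 CPM in control replicates. SLC38A8 had 2 reads in all.

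The SLC43 genes overlapped between groups as well. SLC43A1, a facilitated carrier of large neutral amino acids, had 4.36, 7.69 and 9.37 CPM in replicates 1, 2 and 3 labelled knockdown, against 7.12, 7.32 and 8.19 CPM in the control replicates. SLC43A2, of the same transport type, averaged 3.45 ± 1.28 CPM in libraries labelled knockdown and 4.58 ± 1.39 CPM in control libraries (SD, n = 3 each). SLC43A3, known as a carrier of purine bases, averaged 11.8 ± 0.89 CPM in libraries labelled knockdown and 11.3 ± 2.51 CPM in control libraries (SD, n = 3 each).

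In all, 8 lists of related genes were set beside the transporters, and 0 of their tested genes rose and 0 fell at the 0.05 threshold on the adjusted p of edgeR (0.999 at the lowest). Of 36 tested amino acid response targets of ATF4, 22 lay below 0 and 14 above, and their median log2 fold change was -0.0476, against 0.0033 over all genes. At an unadjusted p under 0.05, 2 of them were lower and 1 was higher, against 2.05% and 1.98% of all genes tested. Of all genes tested, 49.2% lay below 0. The shares of all genes are the same for the lists below, and on lists this short nothing is read from the counts. The stress factor gene ATF3 had 7.03, 6.41 and 8.79 CPM in replicates 1, 2 and 3 labelled knockdown, against 10.1, 11.7 and 10.4 CPM in the control replicates, with no overlap and a log2 fold change of -0.53 (SE 0.161). XPOT, the tRNA export receptor, had a log2 fold change of -0.30 (SE 0.0997), and the mTORC1 inhibitor gene DDIT4 had 0.39 (SE 0.132).

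Of 37 tested genes of amino acid sensing by mTORC1, 19 lay above 0 and 18 below. The lysosomal scaffold genes LAMTOR1 (log2 fold change 0.23, SE 0.0991) and LAMTOR4 (0.23, SE 0.101) were the 2 with an unadjusted p under 0.05. Of 21 genes of glutamine and glutamate metabolism, 10 lay above 0, and 1 had such a p: GFPT2, which spends glutamine on hexosamines, averaged 18.2 ± 5.14 CPM in libraries labelled knockdown and 13.3 ± 1.82 CPM in control libraries (SD, n = 3 each), with overlap. Glutamine synthetase, GLUL, averaged 156 ± 13.2 CPM in libraries labelled knockdown and 180 ± 25.3 CPM in control libraries (SD, n = 3 each). Of 14 genes of branched-chain amino acid breakdown 7 lay above 0, and of 14 genes of cystine use and glutathione synthesis 9 did. Neither list had a gene with an unadjusted p under 0.05.

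Of 15 methionine cycle genes, 10 lay above 0, and 0 had an unadjusted p under 0.05. For 4 of the 15 every library labelled knockdown lay below every control library, and for 1 it lay above, against 4.88% and 4.29% of all genes tested; on a list this short nothing is read from the counts. The salvage enzyme gene MTAP averaged 49.3 ± 3.11 CPM in libraries labelled knockdown and 56.6 ± 4.35 CPM in control libraries (SD, n = 3 each). AHCYL1 averaged 156 ± 4.46 CPM in libraries labelled knockdown and 172 ± 6.17 CPM in control libraries (SD, n = 3 each). Of 15 tested carriers of other families, 9 lay above 0, and the mitochondrial ornithine carrier gene SLC25A15 had the lowest p (log2 fold change 0.36, SE 0.135, groups not overlapping). Of 12 partners and regulators of the transporters, 8 lay above 0. The ubiquitin ligase gene MARCHF1 averaged 10.2 ± 1.18 CPM in libraries labelled knockdown and 14.1 ± 1.31 CPM in control libraries (SD, n = 3 each), with no overlap and an unadjusted p of 0.00614.

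**Figure D5:**
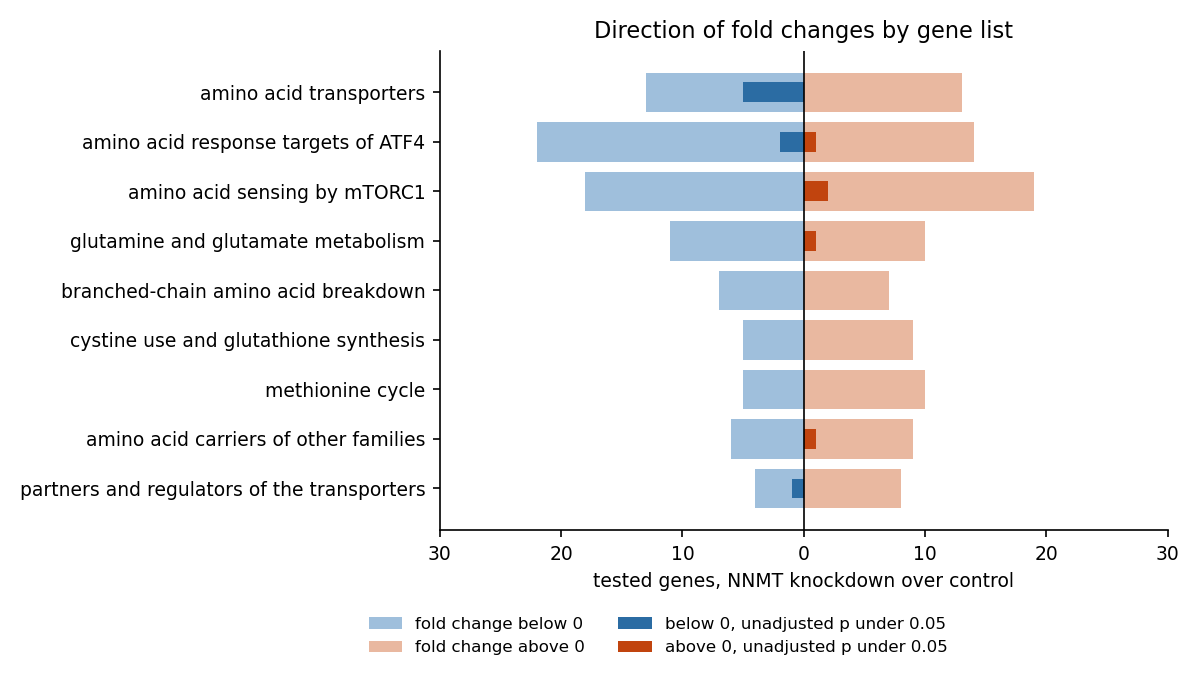
Number of tested genes with a log2 fold change, NNMT knockdown over control, below 0 (left, blue) and above 0 (right, orange) for the amino acid transporters and 8 lists of related genes; dark bars count those with an unadjusted p under 0.05. The transporters are split 13 to 13, with 5 dark below 0 and 0 above, and the ATF4 targets are split 22 to 14. Of all genes tested, 49.2% lay below 0, and 2.05% were lower and 1.98% higher at such a p.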

How the data were processed

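The authors deposited raw read counts per gene for 6 libraries, made with featureCounts 2.0.6, GENCODE 44 genes and hg38 alignments, per the file headers. Sources used here name no aligner. Per the file headers, reads mapping to several places or overlapping several genes were not counted, and no strand or fragment option was set. Of counts from 2 to 10 reads, 73.4% to 76.7% were even, against 49.8% to 50.8% in genes with high counts, so mates were largely counted singly and counting limits (3 reads) are too narrow. Every one of the 62700 gene identifiers had a symbol. Gene coordinates and the merged exon length behind TPM are those the authors deposited. The labels name kits of NEBNext and of Illumina's stranded type, and 150-base paired reads.

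Samples were grouped by title. Groups were compared by the quasi-likelihood test of edgeR 4.0.16 in R 4.3.3 (filterByExpr defaults, TMM, robust) with Benjamini-Hochberg adjustment over 20250 genes and a threshold of 0.05; the biological coefficient of variation was 18.3%. NNMT did not pass the filter and was added to the same fit. CPM and TPM were computed here from the counts. Alternatives were DESeq2 1.42.0, limma-voom (limma 3.58.1), other scalings and filters, halved counts, a replicate block and leaving out each library; TMM-scaled CPM for overlap, and NNMT in other fits, were added after seeing the data. The edgeR script was tested on 3 simulated data sets with 200 genes changed in each. Of the changed genes tested, it called 28.6% at 1.5-fold, 60.5% at 2-fold and 85.7% at 4-fold. Among those with a mean of at least 5 CPM it called 50%, 92.5% and 99.1%. Unchanged genes were called 38 times in all. Genes named with values were the 10 highest in TPM, the 5 with the lowest p per direction, the chain genes SLC3A1, SLC3A2, SLC7A5 and SLC7A11, members called by any tool and up to 3 genes per related list; values of the other transporters complete the account, and the GC box and TATA core were searched after the results were known. The members and lists were chosen with earlier results of these data known.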

Additional observations from a re-analysis of the deposited data

How the results depend on the processing

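The count of transporters past the adjusted threshold was 0 under every setting except without a filter on low counts, where it was 2. In that fit SLC1A1 (log2 fold change -0.82) and SLC7A2 (-0.85) passed; their standard errors were smaller, and the cause was not tested. Leaving out single libraries gave 2 to 6 transporters at an unadjusted p under 0.05 and 4 to 9 whose groups did not overlap. For the first of these counts the share of all genes in the same fits is not given. The median log2 fold change ran from -0.126 (without replicate 2 labelled knockdown) to 0.0189. With fewer libraries, groups separate more easily. Over these fits SLC1A5 ran from -0.0689 (without control replicate 1; -0.0398 without replicate 2 labelled knockdown) to 0.0809, SLC38A7 from -0.0207 (without replicate 2 labelled knockdown; -0.0106 without control replicate 1) to 0.0342, and SLC7A1 from -0.127 (without replicate 2 labelled knockdown) to 0.229 on the log2 scale. SLC1A3 ran from 0.842 to 1.97 and SLC7A2 from -1.08 to -0.536. The other 200 single-gene values kept their direction and their side of the threshold, though their sizes moved.

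Same-numbered libraries deviated together with correlations of 0.055, -0.0869 and 0.2, so the numbers were not taken as pairs. With the replicate block in edgeR, 0 transporters passed and 7 had an unadjusted p under 0.05, SLC1A3 (0.0286) and SLC7A8 (0.0276) among them. The share of all genes at such a p in that fit is not given. The median log2 fold change of the transporters was -0.0308. For SLC7A8 the standard error was 0.159 with the block and 0.409 without it. NNMT had a log2 fold change of 0.519 in DESeq2 and 0.498 without the filter. The 14 untested transporters, with 0 to 68 reads over all 6 libraries, did not pass the filter on low counts. The part of depth in this was not tested. The p-values of edgeR rest on 3 libraries per group, with the spread of each gene estimated partly from all genes in the fit.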
